A study of Mus musculus with 4 samples.

Results

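The genes described are 9 that belong to the machinery by which leukocytes read antibody and adhere: the Fc receptor genes Fcgr1, Fcgr2b, Fcgr3 and their signalling chain Fcer1g, the integrin genes Itgam, Itgb2 and Itgb5, the integrin ligand gene Icam1, and Ptprc, which encodes CD45. They were chosen by name, and all 9 were found among the 18386 features counted in the mouse cortex. Cortical RNA from 2 male APPswe/PS1ΔE9 transgenic mice (APP) and 2 male WT mice, all labelled C57BL/6 and 12 months old, was sequenced in strand-specific libraries after removal of ribosomal RNA. By the study's methods, the WT controls were C57BL/6J and the origin of the transgenic line was B6.Cg-Tg (APPswe/PS1ΔE9) 85Dbo/Mmjax. APPswe/PS1ΔE9 mice carry a humanised amyloid precursor protein with the Swedish mutations and a human presenilin 1 that lacks an exon, and deposit amyloid with age. The libraries are named by the numbers of the deposited columns, and where a pair of values is given for a group, APP.3 precedes APP.4 and WT.1 precedes WT.2. APP.3 held 28525117 counts, APP.4 31392983, WT.1 43881196 and WT.2 35623228. All 7 listed markers of cortical neurons were counted, led by Slc17a7, and their summed level was 645 and 615 CPM (counts scaled to library size) in APP and 721 and 733 CPM in WT.

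Fc receptors bind the constant part of antibodies. In the mouse, Fcgr1 encodes the high-affinity and Fcgr3 a low-affinity activating receptor for IgG, and both need the chain encoded by Fcer1g, whose ITAM motif recruits the kinase Syk. Fcgr2b encodes the inhibitory receptor, which carries an ITIM motif and recruits the phosphatase encoded by Inpp5d. Itgam and Itgb2 encode the chains of complement receptor 3 (CD11b/CD18), which binds complement fragments and ICAM-1, and Itgb5 encodes a partner of the alpha-v chain that binds vitronectin and Mfge8. CD45 is a phosphatase that sets the activity of Src family kinases at these receptors. In the healthy cortex most of these genes are expressed mainly by microglia, while Icam1 is also expressed by endothelium.

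Of the 9 genes, 4 rose in APP cortex: Fcgr2b, Fcgr3, Itgb2 and Ptprc. A gene was called where the quasi-likelihood test of edgeR, adjusted by Benjamini-Hochberg over all 18386 features, gave an FDR under 0.05 and the fold change was at least 1.5. Over all features, 0.843% were called higher in APP, and 7 features were called lower, none of them among the 9. For each of the 9, both APP libraries lay above both WT libraries in CPM, which held for 21.3% of all features. The median log2 fold change of the 9 was 1.14, with a range from 0.51 to 1.37, and that of all features was -0.0011. At an unadjusted p under 0.05, all 9 were higher by edgeR's quasi-likelihood test, against 7.36% of all features. DESeq2 called 5 of the 9 higher, against 1.04% of all features, and edgeR's exact test called 7, against 1.77%. Since the genes were chosen with results of these libraries known, this direction is a description and no independent evidence. The summed level of the 9 genes was 103 and 124 CPM in the APP libraries and 62.9 and 66.9 CPM in the WT libraries. In this bulk tissue, a change in the number of cells of a type and a change in RNA per cell cannot be told apart.

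**Figure D1:**
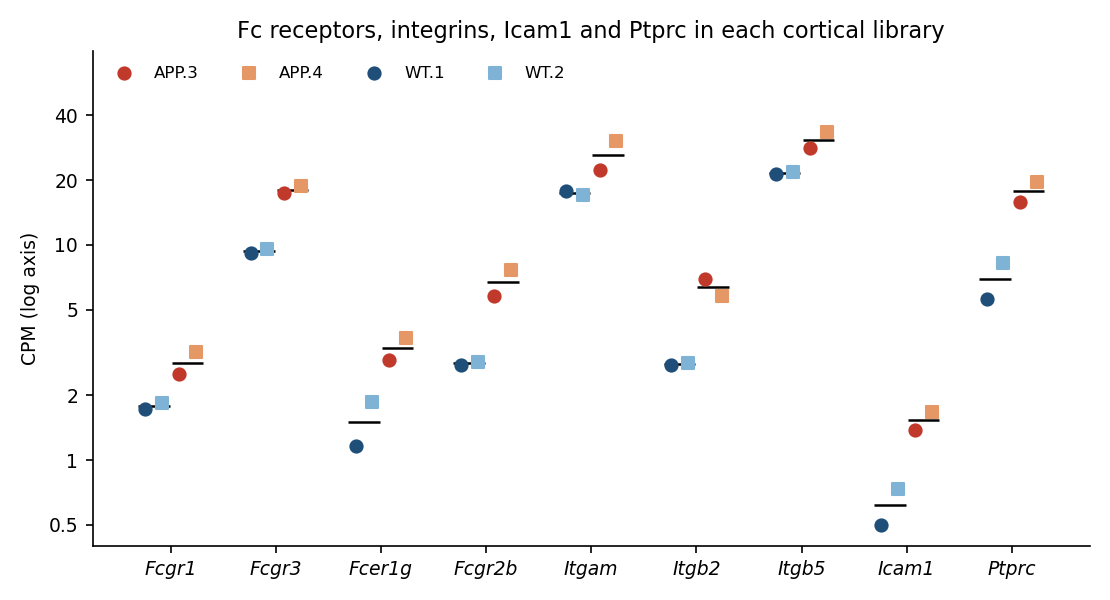
Level of each of the 9 genes in CPM on a log axis, with 1 point per library (APP.3, APP.4, WT.1, WT.2) and a black bar at the mean of each group. Both APP points lie above both WT points for every gene, from Icam1 at 0.501 CPM in WT.1 to Itgb5 at 33.4 CPM in APP.4.

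**Figure D2:**
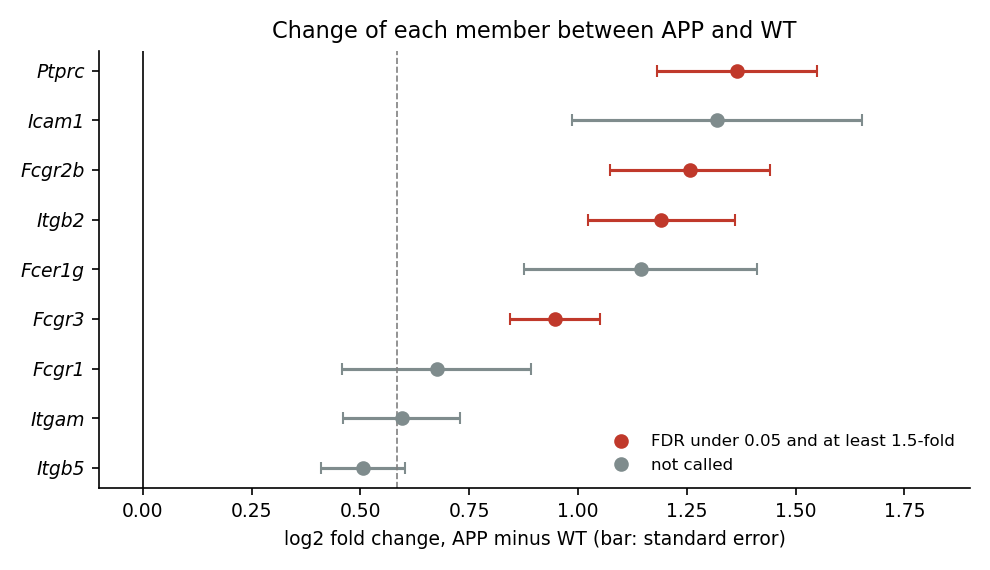
Log2 fold change of each gene, APP minus WT, with its standard error as a bar. Red marks the 4 genes that passed both thresholds, the dashed line the fold change of 1.5, and Itgb5 lies lowest at 0.51 and Ptprc highest at 1.37.

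Fcgr3 (ENSMUSG00000059498, chr1:171051174-171064935, minus strand, GRCm38) was counted 504 and 583 times in the APP libraries and 404 and 340 times in the deeper WT libraries. These correspond to 17.4 and 18.8 CPM in APP and 9.19 and 9.59 CPM in WT. The libraries of each group lay close together and the groups were far apart, with means of 18.1 ± 1.03 CPM in APP and 9.39 ± 0.281 CPM in WT (SD, n = 2). The log2 fold change was 0.95 with a standard error of 0.10 (edgeR adjusted p = 0.00581).

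Fcgr2b (ENSMUSG00000026656, chr1:170958617-170976547, minus strand, GRCm38), the inhibitory receptor gene, reached 5.79 and 7.65 CPM in the APP libraries and 2.78 and 2.85 CPM in the WT libraries. The 2 APP libraries differed from each other more than the WT libraries did, and both lay above 5 CPM, where no WT library came. The group means were 6.72 ± 1.32 CPM and 2.81 ± 0.0516 CPM (SD, n = 2), a log2 fold change of 1.26 with a standard error of 0.18 (edgeR adjusted p = 0.0173). Counts of the inhibitory gene per count of the activating genes Fcgr1 and Fcgr3 together were 0.291 and 0.348 in the APP libraries, against 0.254 and 0.249 in the WT libraries. The 95% intervals (exact Clopper-Pearson, counting error only) ran from 0.244 to 0.346 and from 0.299 to 0.404 in the APP libraries and from 0.207 to 0.311 and from 0.199 to 0.311 in the WT libraries. Both APP ratios lay above both WT ratios, each APP interval overlapped with those of WT, and the difference was not tested.

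The extracellular parts of Fcgr2b and Fcgr3 are nearly the same sequence, and reads there can be placed on either gene. The main transcripts, Fcgr2b-201 and Fcgr3-201, aligned over 509 bases with an identity of 96.5%, which is 37.8% of the length of Fcgr3-201. The longest run without a difference was 129 bases, more than the read length of 100 bases. This run is printed because a read within it, taken without its mate, names neither gene. It joins exon 3 and exon 4 in both genes, and capitals mark the part from exon 4. On the minus strand of GRCm38 it lies at chr1:170967980-170968081 and chr1:170966674-170966700 in Fcgr2b, and at chr1:171057691-171057792 and chr1:171054167-171054193 in Fcgr3, all coding.
Fcgr2b-201 and Fcgr3-201: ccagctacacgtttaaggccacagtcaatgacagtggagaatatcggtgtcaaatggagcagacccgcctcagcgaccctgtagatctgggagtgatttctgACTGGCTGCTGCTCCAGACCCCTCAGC

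How such reads were divided is not given in the sources used here, so the levels of Fcgr2b and Fcgr3 are uncertain against each other. Counted as a single feature, an alternative chosen after seeing the data, they were counted 672 and 820 times in the APP libraries and 526 and 441 times in the WT libraries. The log2 fold change of this sum was 1.03 with a standard error of 0.10 (edgeR adjusted p = 0.00231), so their sum also rose. Fcgr2b-201 also held a repeat of 172 bases that resembled counted transcripts of 5 other genes. No counted transcript of the remaining 7 genes had an alignment of at least 100 bases at 93% identity with another gene.

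Fcgr2b was counted on 3 transcripts. The transcript Fcgr2b-201 took 86.0% of its counts and rose, with 5.35 and 6.45 CPM in the APP libraries and 2.18 and 2.51 CPM in the WT libraries (log2 fold change 1.34, edgeR adjusted p over transcripts = 0.00104). It includes exon 6, a coding exon at chr1:170963325-170963465 on the minus strand of GRCm38, which Fcgr2b-202 lacks. This exon encodes the cytoplasmic insert that distinguishes the form typical of B cells from the form typical of macrophages, and it is printed as the only internal exon in which the 2 transcripts differ.
Fcgr2b-201 exon 6: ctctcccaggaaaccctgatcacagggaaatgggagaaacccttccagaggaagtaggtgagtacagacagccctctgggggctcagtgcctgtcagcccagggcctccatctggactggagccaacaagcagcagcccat

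Fcgr2b-202 had 8 and 17 counts in APP and 14 and 3 in WT, and its groups overlapped. All 1462 bases of Fcgr2b-202 lie in exons of Fcgr2b-201, which is 3544 bases long, so the counts do not show how often exon 6 was used.

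Fcgr1 (ENSMUSG00000015947, chr3:96282909-96293969, minus strand, GRCm38) was counted 73 and 98 times in APP and 76 and 65 times in WT, or at 2.52 and 3.16 CPM in APP and 1.73 and 1.83 CPM in WT. The groups did not overlap in CPM, and the gap between them was about the size of the gap between the APP libraries. The log2 fold change of 0.68 (standard error 0.22) did not pass (edgeR adjusted p = 0.236). Fcer1g (ENSMUSG00000058715, chr1:171229572-171234365, minus strand, GRCm38), which both activating receptors need at the cell surface, had 2.93 and 3.68 CPM in APP and 1.16 and 1.86 CPM in WT. Here the WT libraries were also apart, WT.2 being 1.604-fold WT.1, and the log2 fold change of 1.14 (standard error 0.27) did not pass (edgeR adjusted p = 0.106). Fcer1g was called without APP.3 (log2 fold change 1.30) and without APP.4 (0.97), but not without WT.1 (0.83) or WT.2 (1.51). Fcgr1 was called without APP.3 (0.83), but not without APP.4 (0.50), WT.1 (0.63) or WT.2 (0.72).

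Itgb2 (ENSMUSG00000000290, chr10:77530252-77565708, plus strand, GRCm38), the beta chain common to the leukocyte integrins, was counted 202 and 179 times in the APP libraries and 121 and 100 times in the WT libraries. Its levels were 6.96 and 5.78 CPM in APP and 2.75 and 2.82 CPM in WT. It was the only one of the 9 genes with a higher level in APP.3 than in APP.4. The log2 fold change was 1.19 with a standard error of 0.17 (edgeR adjusted p = 0.0156).

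Itgam (ENSMUSG00000030786, chr7:128062640-128118491, plus strand, GRCm38) encodes an alpha chain that pairs with the Itgb2 product. Its levels were 22.2 and 30.3 CPM in APP and 17.8 and 17.04 CPM in WT. APP.3 stood closer to the WT libraries than to APP.4, and the log2 fold change of 0.59 (standard error 0.13) did not pass (edgeR adjusted p = 0.0942), while DESeq2 called it. Without APP.3 it was called, with a log2 fold change of 0.80, and without APP.4 the log2 fold change was 0.35. It was not called without APP.4, WT.1 (0.63) or WT.2 (0.57). The ratio of Itgam counts to Itgb2 counts was 3.19 and 5.25 in the APP libraries and 6.46 and 6.04 in the WT libraries. The 95% interval in APP.3, 2.72 to 3.76, lay below those of the WT libraries, while that in APP.4, 4.47 to 6.19, overlapped them.

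Itgb5 (ENSMUSG00000022817, chr16:33829665-33949338, plus strand, GRCm38) had 28.1 and 33.4 CPM in APP and 21.4 and 21.9 CPM in WT. Both APP libraries lay above both WT libraries, but the fold change of 1.42 was under the threshold and the adjusted p was 0.0524 (edgeR). Icam1 (ENSMUSG00000037405, chr9:21015985-21028817, plus strand, GRCm38) had the fewest counts of the 9 genes, 40 and 52 in APP and 22 and 26 in WT. Its levels were 1.38 and 1.68 CPM in APP and 0.501 and 0.734 CPM in WT, and its log2 fold change of 1.32 (standard error 0.33) did not pass (edgeR adjusted p = 0.135). Icam1 thus had a larger estimated difference than Fcgr2b, Fcgr3 and Itgb2, which passed, and a larger standard error. Without APP.3, Itgb5 (log2 fold change 0.62) and Icam1 (1.46) were called. Neither was called without APP.4 (0.38 and 1.17), WT.1 (0.49 and 1.06) or WT.2 (0.53 and 1.61).

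Ptprc (ENSMUSG00000026395, chr1:138062861-138175708, minus strand, GRCm38) was counted 461 and 607 times in the APP libraries and 247 and 292 times in the WT libraries. Its levels were 15.9 and 19.6 CPM in APP and 5.62 and 8.24 CPM in WT. It had the largest estimated change of the 9 genes, a log2 fold change of 1.37 with a standard error of 0.18 (edgeR adjusted p = 0.0139), and the gap between the groups exceeded those within them.

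The counts of Ptprc came from 7 transcripts, of which 6, with 97.3% of the counts, are annotated as retained introns. The largest, Ptprc-201, has 26 exons and took 73.6% of the counts, with 11.4 and 14.03 CPM in the APP libraries and 4.01 and 6.81 CPM in the WT libraries. Its log2 fold change was 1.24 (edgeR adjusted p over transcripts = 0.00366). Of its 5740 bases, 76.6% lie in exons of Ptprc-203, the only counted transcript annotated as protein coding, so that reads of the mature mRNA can be placed on Ptprc-201. Ptprc-203 itself had 13 and 17 counts in APP and 9 and 4 in WT, and its log2 fold change of 1.602 did not pass (edgeR adjusted p over transcripts = 0.305). Ptprc-210, a single exon of 3384 bases with 0 bases in exons of Ptprc-203, had 41 and 45 counts in APP and 14 and 18 in WT (log2 fold change 1.81, edgeR adjusted p over transcripts = 0.0154). Ptprc-208 and Ptprc-211, also of a single exon, did not pass, with log2 fold changes of 0.62 and 1.52 (edgeR adjusted p over transcripts = 0.83 and 0.557). Over the 9 genes, 18 transcripts were counted and 8 called higher, against 0.749% of all 37539 transcripts. Besides Fcgr2b-201, Ptprc-201 and Ptprc-210, these were Ptprc-202 and the sole transcripts of Fcer1g, Fcgr3, Itgam and Itgb2. The transcripts of Fcer1g and Itgam carry the same counts as their genes, which did not pass (edgeR adjusted p = 0.106 and 0.0942). In the fit over transcripts, the adjusted p of these same counts was 0.0320 and 0.0238 (edgeR), so these calls add no separate evidence.

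**Figure D3:**
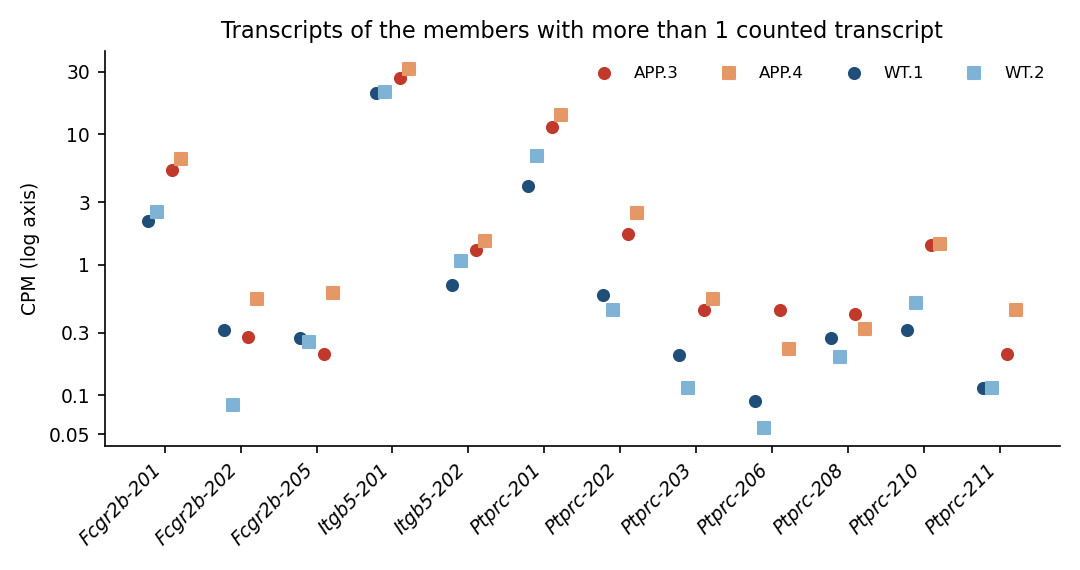
Level in CPM, on a log axis, of each counted transcript of Fcgr2b, Itgb5 and Ptprc, with 1 point per library. The APP points of Fcgr2b-201 (5.35 and 6.45 CPM) and Ptprc-201 (11.4 and 14.03 CPM) lie above their WT points, while those of Fcgr2b-202 and Fcgr2b-205 overlap with WT.

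Levels can be compared between genes only per length, here as CPM per kilobase of each transcript summed over a gene's transcripts. In WT, Itgb5 with 7.07 ± 0.111 and Fcgr3 with 6.97 ± 0.209 CPM per kilobase (SD, n = 2) were highest and overlapped. Itgam followed with 3.72, Fcer1g with 2.24, Ptprc with 1.47, Itgb2 with 0.939, Fcgr2b with 0.917, Fcgr1 with 0.688 and Icam1 with 0.243 CPM per kilobase. Of these neighbours, Itgb2 and Fcgr2b overlapped, and the other adjacent pairs did not. In APP the order was the same except that Fcgr3, with 13.4 ± 0.762, stood above Itgb5, with 10.03 ± 1.21 CPM per kilobase. Among the APP libraries, Itgam overlapped with Fcer1g, Fcer1g with Ptprc, and Itgb2 with Fcgr2b.

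Markers of homeostatic microglia moved with these genes. All 11 listed markers were counted and 7 of them rose, among them P2ry13, Siglech, Gpr34, Cx3cr1, Csf1r and Selplg, and the median log2 fold change was 0.72. DESeq2, the exact test and the likelihood ratio test each called 9 of the 11, and 10 had an unadjusted p under 0.05. For this and the following lists, such counts take changes in either direction. The 7.36% of all features given above covers only those higher in APP, and the share in either direction is not given. Their summed level was 398 and 463 CPM in the APP libraries and 252 and 247 CPM in the WT libraries. Gpr34 had 25.2 and 25.3 CPM in APP and 11.4 and 12.2 CPM in WT (edgeR adjusted p = 0.000831). The markers Tmem119, P2ry12, Sall1 and Olfml3 did not pass, with log2 fold changes of 0.30, 0.52, 0.72 and 1.05, and Tmem119, with 9.69 and 15.01 CPM in APP and 9.49 and 10.6 CPM in WT, overlapped between the groups. The part of these markers' rise in the result for the 9 genes was not tested.

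Set against the summed counts of these 11 markers, the 9 genes did not all lie on the same side of WT. Per 1000 such counts, Ptprc stood at 39.9 and 42.4 in the APP libraries against 22.3 and 33.4 in the WT libraries. Fcgr2b had 14.5 and 16.5 against 11.03 and 11.6, and Itgb2 had 17.5 and 12.5 against 10.9 and 11.4. For Ptprc, Fcgr2b, Itgb2, Icam1 and Fcgr3, both APP libraries lay above both WT libraries, with ratios of the group means from 1.12 for Fcgr3 to 1.48 for Ptprc. Itgb5, Itgam and Fcgr1 lay below WT in both APP libraries, with ratios of 0.821, 0.869 and 0.920. Itgb5, for example, stood at 70.7 and 72.2 in APP against 85.1 and 88.9 in WT. For Fcer1g, WT.2 (7.55) lay between APP.3 (7.36) and APP.4 (7.96). Whether the groups of Fcer1g, Itgam and Fcgr1 overlapped changed with the markers summed, in an alternative chosen after seeing the data. These ratios are values of 2 libraries per group with no test, and the share of all features separated in this ratio is not given. In CPM, a different measure, both APP libraries lay above both WT libraries for 3925 of 18386 features and below them for 3927. The sum of the markers was itself higher in APP, so these shares are no background for the ratio. How unusual the numbers of genes above and below WT are in this ratio was not tested.

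**Figure D4:**
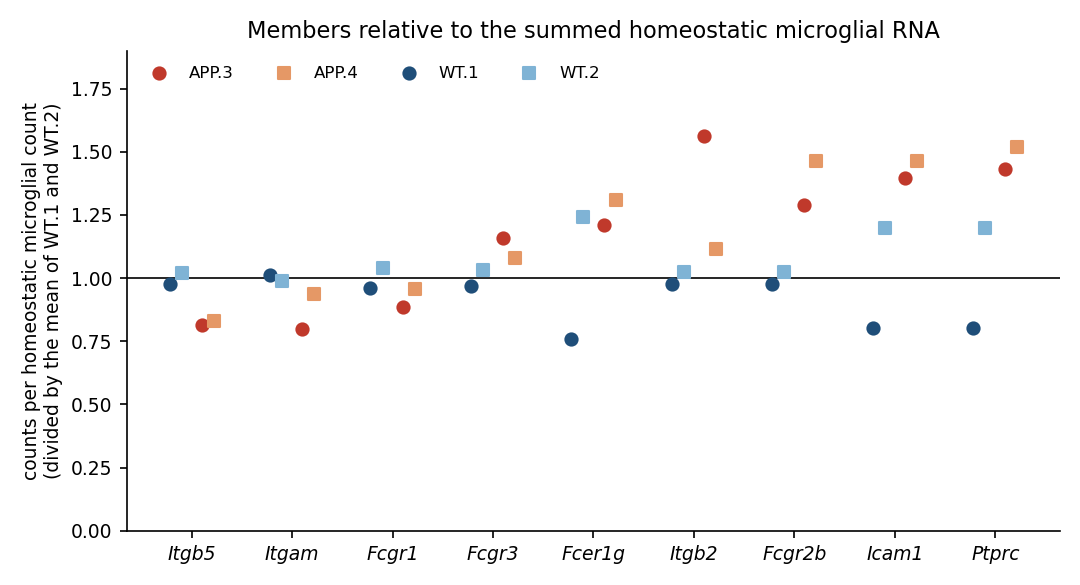
Counts of each gene per summed count of the 11 homeostatic microglial markers, in each library, divided by the mean of WT.1 and WT.2. Ptprc, Icam1, Fcgr2b, Itgb2 and Fcgr3 have both APP points above both WT points, and Itgb5, Itgam and Fcgr1 have both below.

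The other Fc receptor genes did not move together. Of 13 listed, 7 were counted, and their median log2 fold change was 0.08. Of these, 0 were called with edgeR's quasi-likelihood test, its exact test or DESeq2, and 1, Fcgr4, had an unadjusted p under 0.05. Fcgr4, a further activating receptor, had 0.482 and 0.161 CPM in APP and 0.0910 and 0.0282 CPM in WT, from 14, 5, 4 and 1 counts. Fcrls, a microglial gene of the Fc receptor-like family, was at 20.5 and 7.46 CPM in APP and 5.85 and 11.2 CPM in WT, so its groups overlapped. Fcgrt, the neonatal Fc receptor that recycles IgG, had 6.38 and 5.20 CPM in APP and 7.19 and 6.996 CPM in WT (edgeR adjusted p = 0.495). Trim21, the cytosolic Fc receptor, had 2.14 and 2.32 CPM in APP and 1.62 and 1.52 CPM in WT (edgeR adjusted p = 0.415). The genes Fcmr, Fcrla, Fcrl5, Fcamr, Fcer1a and Ms4a2 were not among the features. Pigr held 55.1% of the summed level of this list and stayed between 24.0 and 26.0 CPM in the 4 libraries, Fcer2a lay between 0.478 and 0.592 CPM, and Fcrl1 was at 0 in APP.4 and at 0.310 CPM or less elsewhere.

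Among 6 other leukocyte integrin genes, 5 were counted and 1 was called. Itgax, which encodes CD11c, another alpha chain that pairs with the Itgb2 product, was counted 214 and 219 times in the APP libraries and 16 and 13 times in the WT libraries. Its log2 fold change was 4.29 with a standard error of 0.21 (edgeR adjusted p = 3.21e-05). Per count of Itgam it had 0.332 and 0.233 counts in APP and 0.0205 and 0.0215 in WT, and the lowest bound of the APP intervals, 0.2004, lay above the highest of WT, 0.0371. Itgad, the alpha chain of the same subfamily, had 1.10 and 0.517 CPM in APP and 0.228 and 0.282 CPM in WT (edgeR adjusted p = 0.236). Itgal, the alpha chain of LFA-1, had 0.241 and 0.291 CPM in APP and 0.319 and 0.423 CPM in WT and did not pass (edgeR adjusted p = 0.817). Itga4 held 87.8% of the summed level of the list, at 38.4 and 34.6 CPM in APP and 35.4 and 32.8 CPM in WT, and Itgb7 lay below 0.4 CPM in every library. The list's median log2 fold change was 0.10. Of 17 further integrin subunit genes, 16 were counted and the median log2 fold change was 0.08. Of the 16, 0 were called with edgeR's quasi-likelihood test, its exact test or DESeq2, and 4 had an unadjusted p under 0.05. Itgav, the alpha chain that pairs with the Itgb5 product, had 173 and 186 CPM in APP and 183 and 188 CPM in WT, Itgb8 109 and 128 against 99.8 and 101 CPM, and Itgb1 67.5 and 70 against 65.2 and 65.4 CPM.

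Downstream of the receptors, some genes of the activating and of the inhibitory side rose and most did not pass. Of 23 ITAM kinase and adaptor genes, 22 were counted and 3 rose, with a median log2 fold change of 0.57 for the list. DESeq2 called 3 of the 22, edgeR's exact and likelihood ratio tests called 7 each, and 14 had an unadjusted p under 0.05, in either direction. Tyrobp, which encodes the ITAM adaptor of TREM2, had 22.1 and 24.7 CPM in APP and 5.48 and 5.56 CPM in WT (edgeR adjusted p = 5.23e-05). The kinase gene Lyn and the exchange factor gene Vav1 had log2 fold changes of 0.78 and 1.14 (edgeR adjusted p = 0.0313 and 0.0305). The brain-abundant kinase genes Fyn and Src did not pass, with log2 fold changes of 0.12 and -0.24. Of 10 inhibitory phosphatase and adaptor genes, all were counted and 2 rose, and their median was 0.17. Inpp5d, whose product binds the inhibitory Fc receptor, had 16.2 and 17.6 CPM in APP and 9.69 and 10.01 CPM in WT (edgeR adjusted p = 0.0139). Ptpn6, the SHP-1 phosphatase gene, had 3.86 and 5.04 CPM in APP and 2.05 and 1.86 CPM in WT (edgeR adjusted p = 0.0343). Ptpn11, Cbl and Inppl1, the most abundant of that list, had log2 fold changes from -0.02 to 0.03.

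Of 17 genes of integrin activation and linkage, all were counted and 2 rose, with a median log2 fold change of 0.23. DESeq2 called 2 of the 17, the exact test and the likelihood ratio test 4 each, and 8 had an unadjusted p under 0.05. Plek, a protein kinase C substrate of blood cells, had 37.0 and 39.8 CPM in APP and 19.7 and 17.3 CPM in WT (edgeR adjusted p = 0.00131). Dock2, a Rac activator of leukocytes, had 7.93 and 11.2 CPM in APP and 4.71 and 4.48 CPM in WT (edgeR adjusted p = 0.0347). The widely expressed genes Tln2, Fermt2 and Rap1b had log2 fold changes from 0.02 to 0.12 and did not pass. Of 13 other adhesion ligand genes, 12 were counted and 1 was called, Selplg, the selectin ligand, which is also among the microglial markers. The median of that list was 0.10, and the neuronal ligand genes Thy1 and Icam5 and the ubiquitous Cd47 had log2 fold changes of -0.09, -0.13 and -0.03.

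Leukocytes other than microglia express the same receptors and were looked for by their own markers. Of 7 border macrophage markers, all were counted and 0 called. They summed to 13.5 and 13.1 CPM in APP and 13.8 and 13.3 CPM in WT, with Mrc1 the most abundant, at 6.51 and 6.55 CPM in APP and 7.03 and 6.55 CPM in WT, while F13a1 and Ms4a7 had log2 fold changes of 0.01 and -0.09. Of 8 monocyte and neutrophil markers, 4 were counted and 0 called, and they summed to 1.41 and 1.78 CPM in APP and 1.34 and 1.10 CPM in WT, led by Ccr2, with 0.793 and 0.549 CPM in APP and 0.546 and 0.367 CPM in WT. Ly6c2 and S100a8, the most abundant after Ccr2, lay below 0.5 CPM in every library, and Plac8, Ly6g, Ngp and Camp were not among the features. Of 10 T and NK cell markers 4 were counted, with sums of 5.38 and 8.49 CPM in APP and 6.14 and 7.02 CPM in WT, led by Trbc2, Cd4 and Cd3d, while Cd3e, Cd3g, Trac, Ncr1, Nkg7 and Gzma were not among the features. Of 6 B cell markers 3 were counted, Ighm, Ms4a1 and Cd79a, with sums of 5.14 and 6.33 CPM in APP and 4.71 and 8.10 CPM in WT, and Cd79b and Igkc were among those not counted. Of 5 mast cell markers only Kit was counted, at 32.1 and 26.9 CPM in APP and 28.4 and 30.3 CPM in WT, and Kit is also expressed by cortical interneurons. For the lists of border macrophages, monocytes and neutrophils, T and NK cells, B cells and mast cells, 0 genes were called with edgeR's quasi-likelihood test, its exact test or DESeq2, and 0 had an unadjusted p under 0.05. The median log2 fold changes of these lists were -0.06, 0.52, 0.15, -0.13 and 0.01.

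The remaining cell types were also compared. The 9 endothelial markers, all counted, summed to 68.6 and 68.3 CPM in APP and 79.1 and 74.3 CPM in WT. With edgeR's quasi-likelihood test, its exact test or DESeq2, 0 were called, 1 had an unadjusted p under 0.05, and Slco1c1, Flt1 and Pecam1, the most abundant, had log2 fold changes of -0.30, -0.01 and -0.10. The 7 astrocyte markers, all counted, summed to 3954 and 4256 CPM in APP and 3780 and 3415 CPM in WT, with Slc1a2 the most abundant and Slc1a3 next. Of these, 1 was called, Aqp4, the water channel gene, with 190 and 214 CPM in APP and 121 and 124 CPM in WT (edgeR adjusted p = 0.00384). The 7 oligodendrocyte markers, all counted, summed to 1769 and 1544 CPM in APP and 1145 and 1274 CPM in WT, with Mbp and Mobp among the most abundant, and 1 was called, Mag (log2 fold change 0.70, edgeR adjusted p = 0.0182). Of these 7, DESeq2 called 1, the exact test and the likelihood ratio test 2 each, and 7 had an unadjusted p under 0.05. Of the 7 cortical neuron markers 0 were called with edgeR's quasi-likelihood test, its exact test or DESeq2, 3 had an unadjusted p under 0.05, and Slc17a7, Nrgn and Tbr1 had log2 fold changes of -0.29, -0.13 and -0.17. The median log2 fold changes of the endothelial, astrocyte, oligodendrocyte and neuronal lists were -0.10, 0.16, 0.49 and -0.17. The part of these cell types in the levels of the 9 genes was not tested.

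**Figure D5:**
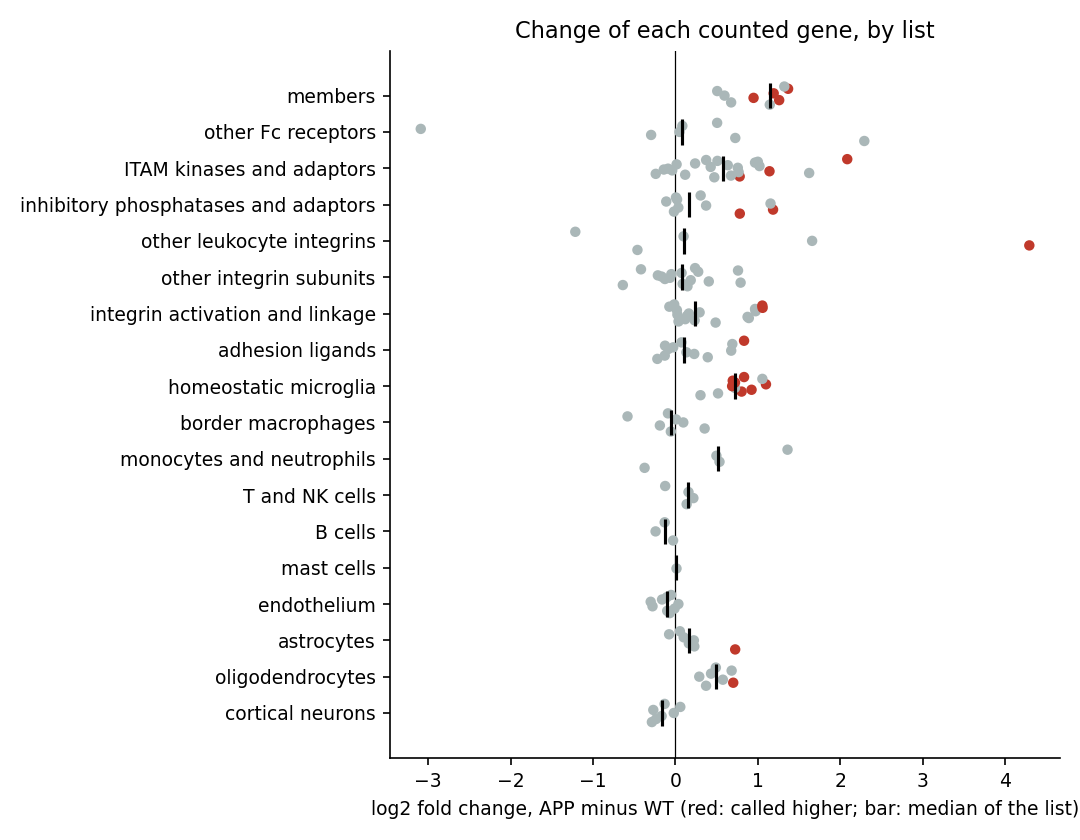
Log2 fold change, APP minus WT, of every counted gene of the 9 genes (members) and of 17 lists, with red points for genes called higher in APP and a black bar at the median. The median is 1.14 for the 9 genes, 0.72 for homeostatic microglia, -0.06 for border macrophages and -0.17 for cortical neurons.

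The features whose pattern over the 4 libraries was nearest to the mean pattern of the 9 genes were Smoc1, Dbi, Adgre1, Anxa3 and Aif1. Nearness was the Euclidean distance between log2 CPM values centred on each gene's mean, over 14658 features with a mean above 1 CPM. The mean pattern was 0.37 and 0.61 for the APP libraries and -0.59 and -0.38 for the WT libraries, and the distances ran from 0.0818 for Smoc1 to 0.130 for Aif1. With 4 libraries, many features share such a pattern by their groups alone. Smoc1, Dbi, Adgre1 and Anxa3 were called, with log2 fold changes of 0.98, 0.91, 0.87 and 1.08 (edgeR adjusted p = 0.0294, 0.00581, 0.0255 and 0.0173), and Aif1, with 1.02, was not (edgeR adjusted p = 0.0558).

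The upstream sequence of 8 of the 9 genes was in the RefSeq promoter table (GRCm38.p6); Itgb2 was the other. The 250 bases before each start were searched on both strands for GAGGAA, the core of the PU box bound by the myeloid factor PU.1, and for GGAAATTCC, a motif of NF-kappaB. GAGGAA was found for 4 of the 8 genes, Fcgr1, Fcgr3, Itgam and Ptprc, and in 23.3% of the 32851 promoters in the table (25.9% of its 27025 genes). GGAAATTCC was found for Icam1 alone and in 0.286% of the promoters (0.344% of the genes). A stretch of 30 bases around the match nearest to the start is printed on the strand of each gene to show where the letters lie, with the matching letters in capitals (TTCCTC is GAGGAA on the opposite strand). They lie at chr3:96294007-96294036 (Fcgr1, minus strand), chr1:171059404-171059433 (Fcgr3, minus strand), chr7:128062610-128062639 (Itgam, plus strand), chr1:138175446-138175475 (Ptprc, minus strand) and chr9:21015777-21015806 (Icam1, plus strand).
Fcgr1: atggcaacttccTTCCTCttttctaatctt
Fcgr3: ggttaagcaagagagtccatttccTTCCTC
Itgam: gtctctcatagctttTTCCTCatacttctc
Ptprc: tgttttcctttaGAGGAAaattgagacgaa
Icam1: acttcagtttGGAAATTCCtagatcgcagg

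The matches end 50 bases before the start in Fcgr1, 1 in Fcgr3, 10 in Itgam, 153 in Ptprc and 145 in Icam1. These starts are those of the promoter table and can differ from the gene bounds given above. The printed stretches of Fcgr3 and Ptprc lie within those bounds. Of the 4 genes with GAGGAA, 2 were called higher in APP, Fcgr3 and Ptprc. A match is a description of letters in a window, and binding was not measured in these libraries.

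For 1 gene on its own, the smallest two-sided p that exact permutation of 2 against 2 mice allows is 0.333, and edgeR's adjusted values borrow the spread of other genes. The number of the 9 genes called was 4 in the fit of all libraries and 7 with edgeR's exact test or its likelihood ratio test, which called 1.91% of all features higher, and it was 9 without APP.3, where 2.74% of all features were called higher.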

How the data were processed

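Cortical libraries of 2 APP and 2 WT mice, with 28525117 to 43881196 counts, were compared. The authors aligned paired reads of 100 bases to Ensembl mouse RNA with FANSe2, allowing mismatches, after discarding ribosomal pairs, and deposited unnormalized read counts per transcript. The submitters' processing notes name hg19, CASAVA 1.8 and edgeR; the Ensembl release and the treatment of shared reads are not given in the sources used here. Deposited columns of log2 fold change, mean log2 CPM, p-value and FDR hold the authors' own comparison and were not used, nor were 4 per-sample columns. WT columns were matched to samples and APP columns to their group.

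The deposited symbol equalled the listed name for 3 genes, for 8 with letter case ignored, and was missing for Fcgr3, so counts were summed by Ensembl identifier in GENCODE M21 (GRCm38, 98.2% of transcripts matched, the rest kept apart). Standard errors were derived from the log2 fold change and the F statistic. Features with fewer than 10 counts in all would have been left out, and 0 were. Tests used R 4.3.3, edgeR 4.0.16, limma 3.58.1 and DESeq2 1.42.0: the quasi-likelihood test, TMM scaling and no covariate. The tests were checked on simulated counts. CPM use TMM library sizes. Log2 CPM had a prior count of 2. Python 3.11.15, pandas 2.3.3, numpy 2.4.6, scipy 1.17.1, matplotlib 3.10.9 and blastn 2.17.0 (alignments of at least 100 bases and 93% identity) served the rest. Intervals are 95% exact (Clopper-Pearson). Counts come from reads without molecular identifiers, so intervals cover counting error only.

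The 9 genes and the 17 gene lists were chosen with earlier results of these data known. Genes were named from the 9, every counted gene of the other Fc receptor, other leukocyte integrin and homeostatic microglia lists, of each other list the 3 of highest mean CPM and every gene called, and the 5 features nearest in pattern. The alternatives comprised DESeq2, the exact test and the likelihood ratio test of edgeR, scaling by library totals, at least 10 counts in every library, a fold change of 2, leaving out each library, the most abundant transcript, and protein-coding transcripts only. Deposited symbols with case ignored and the sum of Fcgr2b and Fcgr3 were chosen after seeing the data.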

Additional observations from a re-analysis of the deposited data

How the results depend on the processing

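Over 109 alternative values of the 9 log2 fold changes, 0 changed sign, and 95 stayed on the same side of the thresholds. These values are refits of the same libraries, and the sum of Fcgr2b and Fcgr3 entered under both genes. Both APP libraries lay above both WT libraries in CPM for each of the 9 genes. Leaving out 1 library could therefore hardly reverse a sign, and the unchanged signs are no independent evidence. Fcgr2b, Fcgr3 and Itgb2 were called in every alternative fit that gave them a value, with adjusted p-values up to 0.0353, 0.0132 and 0.0396; at a fold change of 2, 3 of the 9 genes passed and Fcgr3 did not. Ptprc was called in 11 of 12 alternatives and not on protein-coding transcripts only (log2 fold change 1.603, adjusted p = 0.265, against 5.48e-10 to 0.0452 in the others), where 2.68% of its counts lie. The exact test called 354 features and 7 of the 9 genes, and the likelihood ratio test 391 features and 7; each added Fcer1g (1.14), Itgam (0.59) and Icam1 (1.32), and DESeq2 added Itgam (0.59). A fold change of 2 left 91 features. Leaving out 1 library, with the lone sample assumed to vary like the other group, gave 134 to 601 features and 4 to 9 of the 9 genes, and log2 fold changes of 0.83 to 1.51 for Fcer1g, 0.50 to 0.83 for Fcgr1, 0.35 to 0.80 for Itgam, 0.38 to 0.62 for Itgb5 and 1.06 to 1.61 for Icam1. The highest counts came without APP.3 (601 features, 9 genes) and without APP.4 (478 features, 5 genes); the cause was not tested. Library totals moved the median log2 fold change by 0.00484. Of the genes' transcripts, 9 were called with the exact test, and the share of all transcripts that it called is not given. Over genes, the exact test called 1.77% of all features higher, against 0.843% with the quasi-likelihood test. No paired analysis was possible because the APP columns carry no replicate number of the labels. Icam1, Fcgr1 and Fcer1g had 22 to 114 counts in a library, and the part of depth in their missed calls was not tested.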
